A study of Mus musculus with 25 samples.

Results

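The hedgehog genes examined here are the ligands Shh, Dhh and Ihh, the receptor Ptch1, the signal transducer Smo, the transcription factors Gli1, Gli2 and Gli3, and the ligand-binding inhibitor Hhip. These 9 genes, of the 56956 in the count table, were chosen by name, and Shh was selected on its measured values in these libraries, for its high level in C3 nerve and its absence in C22 nerve. The values of Shh are therefore given as a description without a test, and the tests cover the other members. Of the 9, 8 passed the filter on low counts, a log2 CPM (counts scaled to a common library total) above 1 in at least 7 of 25 libraries, and Ihh did not.

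Hedgehog ligands are secreted, lipid-modified proteins that bind Patched on the receiving cell and so release Smoothened from inhibition. Smoothened, acting at the primary cilium, then turns Gli proteins into activators of transcription, and Ptch1, Gli1 and Hhip are themselves transcribed targets of the pathway. In peripheral nerve Dhh is made by Schwann cells and is required for a normal perineurium, and Shh is best known in this tissue from Schwann cells of injured nerve.

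Whole sciatic nerve was sequenced from untreated mice of 5 groups, with 1 library per group at each age (weeks 3, 5, 7, 9 and 12), each from nerves pooled over 4 to 5 males and females. C3 mice (B6.Cg-Tg(PMP22)C3Fbas/J, C57BL/6J background) carry 5 added copies of human PMP22, and WT-C3 are C57BL/6J mice. C22 mice (Tg(PMP22)C22Clh, FVB/NRJ background) carry 10 added copies, and WT-C22 are FVB/NRJ mice. Both transgenic lines were bred as heterozygotes. C3-cJunKO mice (C3-PMP22 c-JunP0Cre) carry the C3 transgene and a deletion of c-Jun by Cre driven from the promoter of P0, a myelin gene of Schwann cells, and the labels do not give their strain. With 1 pool per group and age, the 5 ages served as the replicates of a group (n = 5), so that each SD and standard error (SE) also covers the change with age. Copy number and strain change together between C3 and C22 and cannot be told apart, and the comparisons below share libraries, since WT-C3 stands in 4 of them and C3 in 3. For C3-cJunKO, whose strain is not given, loss of c-Jun and a difference of strain cannot be told apart. In whole nerve, fewer cells of a type and less RNA per cell cannot be told apart either.

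Depth ran from 2140142 fragments on genes, in the C3 library of 9 weeks, to 49072746. Human PMP22 was read at 12623 ± 1608 CPM (SD) in C3, 11431 ± 3064 in C3-cJunKO and 11846 ± 1507 in C22, against 3.15 ± 2.14 in WT-C3 and 0.82 ± 1.45 in WT-C22. Jun was at 110 ± 11.6 CPM in C3 and 29.2 ± 2.44 in C3-cJunKO, without overlap. The 10 markers of myelinating Schwann cells summed to between 24794 and 103800 CPM in every library, and the 7 skeletal muscle markers to between 5.89 and 10421 CPM, so that the amount of muscle RNA differed widely within groups.

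Per kilobase of exon, Dhh stood far above the other members, with a mean over the 25 libraries of 58.4 CPM per kb, higher than 97.1% of the genes kept. Ptch1 followed at 19.7, Gli1 at 16.9 and Smo at 16.3 CPM per kb. Shh averaged 2.08, Gli2 1.74, Gli3 0.57 and Hhip 0.281 CPM per kb, and the last of these was above only 1.88% of the genes kept. The Schwann cell ligand, its receptor and the target Gli1 were thus among the well-read genes of this tissue, and Gli2, Gli3 and Hhip were read thinly.

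Shh, on whose values the selection rests, and Ptch1 and Gli1, both transcribed targets of the pathway, are shown here by the 250 bases upstream of their annotated starts. They were read from GRCm39 at the starts of the canonical transcripts of GENCODE, on the strand of each gene, and capitals mark a match to the consensus GACCACCCA of the Gli proteins on either strand. The windows are chr5:28672255-28672504 for Shh, chr13:63714093-63714342 for Ptch1 and chr10:127177866-127178115 for Gli1, all on the minus strand. The Shh window overlaps an exon of the noncoding gene 9530036O11Rik, and the Ptch1 window lies inside the span of longer Ptch1 transcripts but in no exon.
Shh: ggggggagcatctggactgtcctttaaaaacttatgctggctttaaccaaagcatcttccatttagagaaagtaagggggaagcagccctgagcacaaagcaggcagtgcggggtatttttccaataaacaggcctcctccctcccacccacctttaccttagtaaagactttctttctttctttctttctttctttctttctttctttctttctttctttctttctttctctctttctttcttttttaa
Ptch1: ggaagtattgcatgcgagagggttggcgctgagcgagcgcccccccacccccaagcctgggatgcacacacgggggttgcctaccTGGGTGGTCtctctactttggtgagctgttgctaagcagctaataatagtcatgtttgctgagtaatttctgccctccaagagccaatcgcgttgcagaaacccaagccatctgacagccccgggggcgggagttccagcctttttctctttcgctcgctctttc
Gli1: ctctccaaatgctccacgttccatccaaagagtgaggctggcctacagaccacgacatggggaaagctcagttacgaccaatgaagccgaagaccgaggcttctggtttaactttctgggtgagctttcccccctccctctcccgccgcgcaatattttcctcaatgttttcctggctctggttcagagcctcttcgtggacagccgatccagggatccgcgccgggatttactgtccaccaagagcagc
The Ptch1 window holds 1 match, on the opposite strand and starting 165 bases before the annotated start, and the windows of the other 8 members hold none. The same letters occur in 41 of 21770 windows of this length upstream of protein-coding genes, or 0.188%. TGANTCA, the binding sequence of the AP-1 factors to which c-Jun belongs, is in 6.17% of all such windows and in none of the 9 members. The Shh window has a GC content of 40.8%, that of Ptch1 56.8% and that of Gli1 55.6%, beside a median of 53.2%. A match describes the letters only, and sequence outside these windows was not searched.

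Shh, at chr5:28661813-28672254 on the minus strand of GRCm39, was read in C3, C3-cJunKO and both controls and gave no count in any C22 library. In WT-C3 it had 10, 13, 20, 51 and 108 counts from 3 to 12 weeks, or 0.781, 1.03, 2.29, 4.05 and 6.6 CPM. In C3 it had 319, 600, 1004, 53 and 243 counts, or 9.53, 23.2, 20.2, 24.8 and 10.0 CPM. Every C3 library lay above every WT-C3 library, and the distance between the groups was widest at 5 weeks and narrowest at 12 weeks. C3 averaged 17.5 ± 7.28 CPM and WT-C3 2.95 ± 2.42 (SD, n = 5 each), a ratio of 5.95. By age the ratio of C3 to WT-C3 was 12.2, 22.6, 8.82, 6.11 and 1.52. Without 1 library at a time the ratio of the means ran from 5.03 to 8.61, the latter without the WT-C3 library of 12 weeks, and it was 5.34 without the shallow C3 library of 9 weeks.

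In C3-cJunKO, Shh had 162, 241, 256, 157 and 156 counts, or 8.57, 7.33, 9.36, 6.37 and 5.64 CPM, with a mean of 7.46 ± 1.53. Each of these values lay below the lowest C3 library, by a small margin at 3 and 7 weeks. C3 was 1.11, 3.17, 2.15, 3.88 and 1.78 times as high as C3-cJunKO from 3 to 12 weeks. Against WT-C3, the C3-cJunKO nerve was 11.0, 7.14, 4.09, 1.57 and 0.855 times as high, so the groups overlapped and the order was turned at 12 weeks. The levels of Jun in the same libraries were lower in C3-cJunKO than in WT-C3 (58.5 ± 8.45 CPM), while those of Shh were higher up to 9 weeks. Of 10 markers of repair or immature Schwann cells, 6 were tested, and all 6 were called higher in C3 than in WT-C3, beside 12.5% of all genes. The 10 genes, with those not tested, summed to between 307 and 413 CPM in C3, 203 and 238 in C3-cJunKO and 126 and 165 in WT-C3. In C22, which had no Shh count, 4 of the 6 were called higher and 1 lower than in WT-C22, beside 21.9% and 20.5% of all genes. The sums were 190 to 278 CPM in C22 against 152 to 203 in WT-C22. Jun in C22 was at 158 ± 18.6 CPM, above its level in C3. None of the list was at 0 in any group, and its part in the level of Shh was not tested.

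In WT-C22, Shh had 15, 11, 36, 34 and 144 counts, or 0.577, 1.17, 1.48, 1.33 and 3.6 CPM, with a mean of 1.63 ± 1.15. In both controls the library of 12 weeks was the highest, and the controls overlapped. In C22 the count was 0 in each of 5 libraries, 0 of 123490082 fragments in all, which allows up to 0.0243 CPM at 3 counts over the group, for counting error only. Pooled over its libraries, WT-C22 had 240 counts in 130921996 fragments, or 1.83 CPM without TMM factors, which is at least 75.5-fold higher than C22. With the 5 WT-C22 libraries weighted equally it was at least 64.6-fold, and from the pooled counts at least 44.1-fold without the WT-C22 library of 12 weeks and at least 58.6 to 63.2-fold without 1 C22 library. The order of the means was C3, C3-cJunKO, WT-C3, WT-C22 and C22, of which the neighbours C3-cJunKO and WT-C3, and WT-C3 and WT-C22, overlapped and the others did not.

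**Figure D1:**
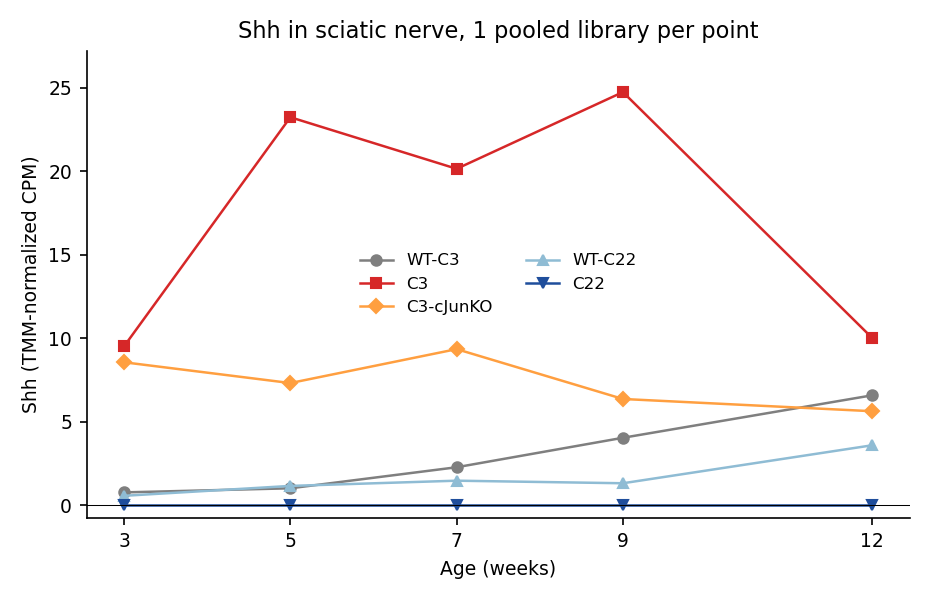
Shh in TMM-normalized CPM (vertical axis) by age in weeks (horizontal axis), with 1 pooled library per point and a line per group. The C3 libraries lie between 9.53 and 24.8 CPM, above all others, the controls are highest at 12 weeks, and C22 is at 0 throughout.

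The genes around Shh were compared to see whether the absence of reads extended beyond it. Of 31 annotated genes of the table within 1000 kb, 7 with Shh were kept, and none of the 6 others was at 0 in C22. Apart from the overlapping noncoding gene given below, the genes that the filter left out were not examined. The comparison therefore covers the kept genes only. The closest, Rbm33, 37.6 kb away, rose in C22 (log2 change 0.29 ± 0.10 SE, adjusted p = 0.0436, edgeR quasi-likelihood test) and had 0.32 ± 0.12 in C3 (adjusted p = 0.076). Lmbr1, 763 kb to the other side, whose intron holds the limb enhancer of Shh, fell in C22 (-0.44 ± 0.09, adjusted p = 0.00211) and had -0.37 ± 0.14 in C3 (adjusted p = 0.0749). Insig1, which restrains sterol synthesis, fell in both models (-1.11 ± 0.12 in C3 and -1.43 ± 0.24 in C22, adjusted p = 0.000133 and 0.00067), and Paxip1 rose in both (0.36 ± 0.09 and 0.32 ± 0.08, adjusted p = 0.0131 and 0.00832). Dpp6, which encodes an auxiliary subunit of potassium channels, rose in C3 (1.37 ± 0.27, adjusted p = 0.00409) and fell in C22 (-1.87 ± 0.27, adjusted p = 0.000237). Its C3 and WT-C3 libraries overlapped, and those of C22 and WT-C22 did not. The controls differed as well, with Dpp6 higher in WT-C22 than in WT-C3 by 1.73 ± 0.23 (adjusted p = 0.000186). The long noncoding gene 9530036O11Rik on the opposite strand overlaps Shh and had 0 to 20 counts per library. Over the group it had 3 counts in C22 and 12 in WT-C22, 43 in C3 and 11 in WT-C3, and 12 in C3-cJunKO. WT-C3 was the shallowest group, with 65735764 fragments against 134021354 in C3. Fragments on 2 genes at once were set aside as ambiguous, 1.78% to 2.04% of each library, and whether the counting used strand is not given in the sources used here.

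**Figure D2:**
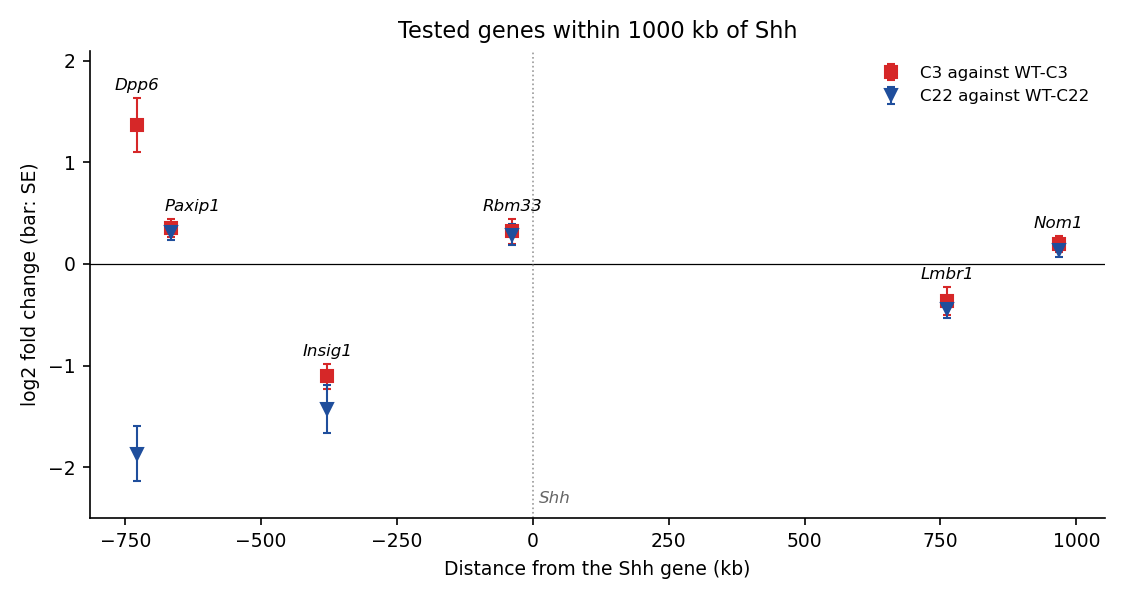
Log2 fold change (vertical axis, bar: SE) of the 6 tested genes within 1000 kb of Shh against their distance from it in kb, for C3 against WT-C3 and C22 against WT-C22. Dpp6 moved in opposite directions, and the other 5 genes lie on the same side of 0 in both models.

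The genes whose log2 CPM ran most like that of Shh over the 25 libraries were Tom1l2 (Pearson r = 0.915), Spp1 (0.904), Capg (0.899), Parp3 (0.896) and Epha2 (0.894). With the mean of each group removed these values were 0.315, 0.603, 0.626, 0.332 and 0, so that much of the likeness lay between groups, where C22 has no Shh. These correlations are descriptions over libraries that share groups and depths.

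Dhh, the Schwann cell ligand, at chr15:98789033-98796439, was well read in every library. It was at 282, 230, 221, 263 and 231 CPM in WT-C3 and at 289, 321, 273, 345 and 243 CPM in C3, from 3 to 12 weeks. In WT-C22 it was at 263, 227, 202, 210 and 210 CPM and in C22 at 308, 328, 287, 232 and 267 CPM. Both models were higher than their control at each of 5 ages, and the ranges overlapped. Dhh rose in C22 (log2 change 0.35 ± 0.10 SE, a fold of 1.27, adjusted p = 0.0189) and did not pass the test in C3 (0.25 ± 0.10, 95% interval 0.03 to 0.47, adjusted p = 0.0878; 0.0379 without the C3 library of 12 weeks). The test of the difference between the models gave 0.0742 ± 0.15 (interval -0.24 to 0.38, adjusted p = 0.834). The 10 markers of myelinating Schwann cells, the cells that make Dhh, summed to between 24794 and 37522 CPM in C22 and 48035 and 98090 in WT-C22, the opposite direction to Dhh. In C3-cJunKO, Dhh was at 329, 231, 234, 240 and 186 CPM, lower than in C3 at 4 of 5 ages, without passing the test (-0.26 ± 0.14, adjusted p = 0.707).

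The 5 genes most like Dhh over the libraries were Metrn (r = 0.913), Mag (0.896), Cnp (0.884), Tsc22d4 (0.88) and Tspan15 (0.879). Of these, Mag and Cnp encode myelin proteins. Mag is among the markers of myelinating Schwann cells, whose sum moved in the opposite direction to Dhh in C22. After removal of the group means the 5 values of r were still between 0.86 and 0.937. Rhebl1 lies on the same strand and overlaps Dhh, with 18 to 323 counts per library, and the opposite-strand gene Gm49442 had 1 to 49.

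Ihh, at chr1:74984474-74990837, the ligand known from cartilage and gut, was at the edge of detection. It had 0 to 18 counts per library and at most 0.632 CPM. It was at 0 in the WT-C3 library of 7 weeks and the C3 library of 9 weeks. C22 was above WT-C22 at each of 5 ages, from at most 12 counts, and the groups overlapped.

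Ptch1, the receptor and a target of the pathway, at chr13:63656142-63721412, showed its highest values in C3-cJunKO. It was at 238, 278, 251, 345 and 323 CPM in WT-C3, at 339, 282, 280, 257 and 342 in C3, and at 293, 384, 387, 423 and 380 in C3-cJunKO. The C3-cJunKO libraries were above WT-C3 at all 5 ages and above C3 at 4, with overlap in both comparisons. Against WT-C3 the log2 change was 0.38 ± 0.13 (interval 0.10 to 0.65), and its adjusted p rounds to 0.05 but lay just above the threshold. It was 0.0101 with age as a replicate block and 0.0211 with DESeq2, and from 0.0138 to 0.125 without 1 library. Against C3 the change of Ptch1 was 0.32 ± 0.12 (adjusted p = 0.48), and for C3 against WT-C3 it was 0.06 ± 0.13 (interval -0.21 to 0.34, adjusted p = 0.755).

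In the FVB/NRJ mice, Ptch1 was at 248, 238, 235, 297 and 298 CPM in WT-C22 and 193, 233, 231, 218 and 263 CPM in C22. C22 was lower at each of 5 ages, by a log2 change of -0.22 ± 0.10 that did not pass the test (interval -0.44 to 0.01, adjusted p = 0.114). The difference between the models was -0.30 ± 0.16 (adjusted p = 0.285). The genes most like Ptch1 over the libraries were Cdk19 (r = 0.87), Chl1 (0.867), Csmd1 (0.852), Peak1 (0.848) and Il6st (0.847).

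Smo, the transducer that Ptch1 holds inactive, at chr6:29735407-29762532, varied little within groups. Its means were 132 ± 10.4 CPM in WT-C3, 137 ± 9.26 in C3, 136 ± 7.6 in C3-cJunKO, 161 ± 12.7 in WT-C22 and 151 ± 16.1 in C22. Neither model differed from its control by the test (0.05 ± 0.07 in C3, adjusted p = 0.627, and -0.10 ± 0.08 in C22, adjusted p = 0.37; the latter turned to 0.0703 with library size only). Smo separated the strains, with 183, 152, 156, 160 and 155 CPM in WT-C22 and 141, 133, 129, 141 and 116 in WT-C3. Every FVB/NRJ control lay above every C57BL/6J control, and Smo was higher by 0.29 ± 0.08 (adjusted p = 0.0178). The library of 3 weeks was the highest of WT-C22, and without it the change was 0.24 (adjusted p = 0.0393).

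Gli1, the activator that is most directly a readout of the pathway, at chr10:127165751-127177865, did not pass the test in any comparison of groups. It was at 64.0, 81.1, 76.4, 74.8 and 116 CPM in WT-C3, at 102, 85.7, 92.8, 93.9 and 98.5 in C3, and at 62.9, 94.7, 98.1, 117 and 107 in C3-cJunKO. C3 was higher than WT-C3 at 4 of 5 ages and lower at 12 weeks. The log2 change in C3 was 0.20 ± 0.14 (interval -0.10 to 0.50, adjusted p = 0.327), and without the WT-C3 library of 12 weeks it was 0.35 (adjusted p = 0.0203). In WT-C22 Gli1 was at 81.3, 71.4, 86.0, 69.2 and 78.7 CPM and in C22 at 79.1, 60.3, 75.9, 63.4 and 85.1. Of the C22 libraries, 3 lay within the range of WT-C22 and those of 5 and 9 weeks below it, with a log2 change of -0.09 ± 0.10 (interval -0.32 to 0.14, adjusted p = 0.495) that turned to 0.0753 with library size only. C22, in which Shh had no count, was lower in Gli1 at 4 of 5 ages. The difference between the models was -0.31 ± 0.18 (adjusted p = 0.308), and -0.47 without the WT-C3 library of 12 weeks (adjusted p = 0.0354). C3-cJunKO differed from C3 by 0.03 ± 0.14 (interval -0.28 to 0.33, adjusted p = 1), a value that turned to -0.0084 with age as a replicate block. The genes most like Gli1 were Kifc2 (r = 0.834), Ebf4 (0.811), Syne2 (0.8), Appl2 (0.799) and Ovgp1 (0.797).

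Gli2 and Gli3, the factors that carry the first response to the signal and its repression, were lower in C22. Gli2, at chr1:118761858-118982598, was at 10.9, 14.2, 18.1, 16.9 and 16.3 CPM in WT-C22 and 11.3, 8.89, 11.0, 12.0 and 12.3 CPM in C22. C22 was lower from 5 weeks on, and Gli2 fell by 0.47 ± 0.14 on the log2 scale (adjusted p = 0.0205). Gli3, at chr13:15637809-15904611, was at 4.88, 5.1, 5.97, 5.19 and 5.23 CPM in WT-C22 and 4.09, 3.74, 4.23, 4.65 and 4.15 CPM in C22, from 77 to 129 counts per C22 library. The groups did not overlap, and Gli3 fell by 0.35 ± 0.11 (adjusted p = 0.0246). Both calls were lost with library size only (adjusted p = 0.133 and 0.24), a scaling that moved the median change of all genes in C22 by 0.17, and Gli3 also with no filter on low counts (0.105) and with all libraries in 1 fit (0.0663). Without 1 library Gli2 reached at most 0.0559 and Gli3 at most 0.0766, in both without the WT-C22 library of 7 weeks.

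In the C57BL/6J mice neither passed the test. Gli2 was at 12.5, 14.3, 16.1, 15.1 and 16.4 CPM in WT-C3 and at 12.0, 18.0, 13.6, 26.6 and 11.5 in C3, where the highest value is that of the shallow library of 9 weeks, with 57 counts. Its log2 change was 0.05 ± 0.19 (adjusted p = 0.884), and -0.11 without that library. Gli3 had 6 counts in that library, and its change was -0.21 ± 0.19 (adjusted p = 0.462). The difference between the models was -0.54 ± 0.25 for Gli2 (adjusted p = 0.197).

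Hhip, the decoy that binds all 3 ligands at the cell surface, at chr8:80692480-80784658, had 2 to 204 counts per library. It was at 4.53, 2.29, 2.86, 0.318 and 0.855 CPM in WT-C3 and at 1.4, 1.7, 2.03, 0.934 and 2.31 in C3. In WT-C22 it was at 3.0, 4.46, 6.05, 6.01 and 5.11 CPM and in C22 at 3.54, 2.48, 5.01, 6.56 and 3.62. WT-C22 was higher than WT-C3 at 4 of 5 ages, with a log2 difference of 1.21 ± 0.48 that did not pass the test (interval 0.17 to 2.26, adjusted p = 0.0946), and did with DESeq2 (0.0401) and with all libraries in 1 fit (0.025). The changes in C3 (-0.24 ± 0.50, adjusted p = 0.763) and C22 (-0.22 ± 0.27, adjusted p = 0.523) did not pass. The genes most like Hhip were Btnl9 (r = 0.878), Col6a6 and Shmt1 (both 0.857), Qsox1 (0.81) and Immt (0.809).

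**Figure D3:**
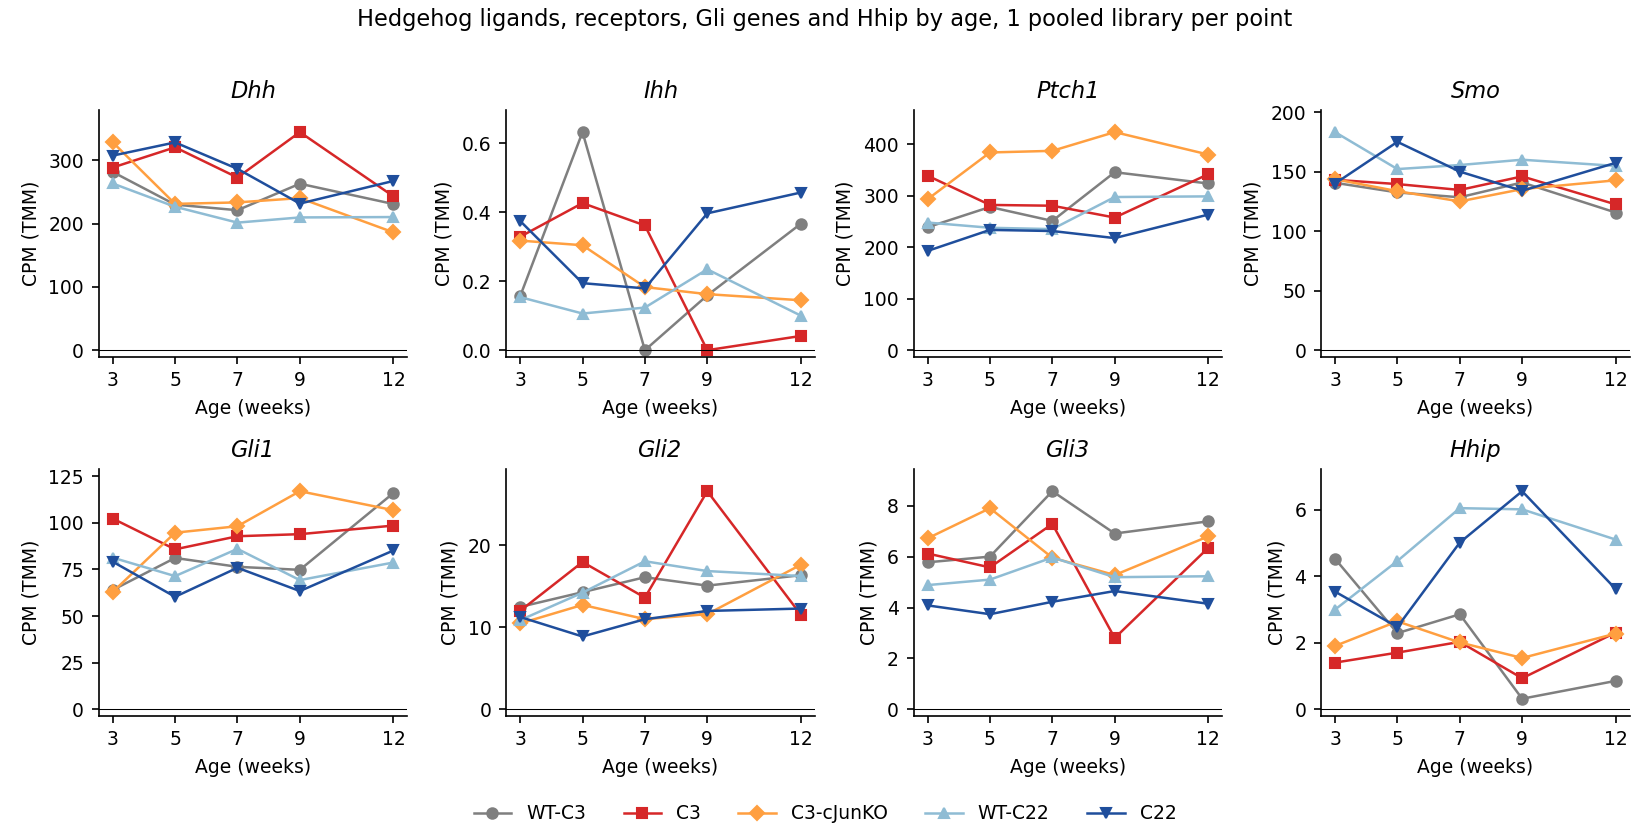
TMM-normalized CPM (vertical axes) of the 8 members other than Shh by age in weeks (horizontal axes), 1 pooled library per point and a line per group. Ptch1 is highest in C3-cJunKO from 5 weeks on, Gli3 in C22 lies below WT-C22 at all ages, and the single high Gli2 point and low Gli3 point of C3 are the library of 9 weeks.

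Counted over the 7 members tested, without Shh, few passed the test in either model. In C3 none was called by edgeR, 1 had an unadjusted p under 0.05 and DESeq2 called none, beside 23.9% of the 13993 genes tested that were called. In C22 3 were called, by edgeR and by DESeq2 alike in number, beside 42.4% of all genes, so that the members' share is close to the background. For the difference between the models none was called (1 at an unadjusted p under 0.05, none by DESeq2), beside 12.1%. The log2 changes of the 7 ran from -0.24 to 0.25 in C3 and from -0.47 to 0.35 in C22.

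For C3-cJunKO against C3 none of the 7 was called (1 at an unadjusted p under 0.05, none by DESeq2), beside 0.55% of all genes. For C3-cJunKO against WT-C3 none was called by edgeR, 1 by DESeq2 and 1 at an unadjusted p under 0.05, in each case Ptch1, beside 21.5%. Between the control strains 1 was called, Smo, beside 21.7%, and DESeq2 called 3, with Gli3 (-0.39 ± 0.13, adjusted p = 0.0604 by edgeR and 0.0489 by DESeq2) and Hhip. Dhh (-0.14 ± 0.10) and Ptch1 (-0.13 ± 0.12) did not pass there (adjusted p = 0.329 and 0.507).

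**Figure D4:**
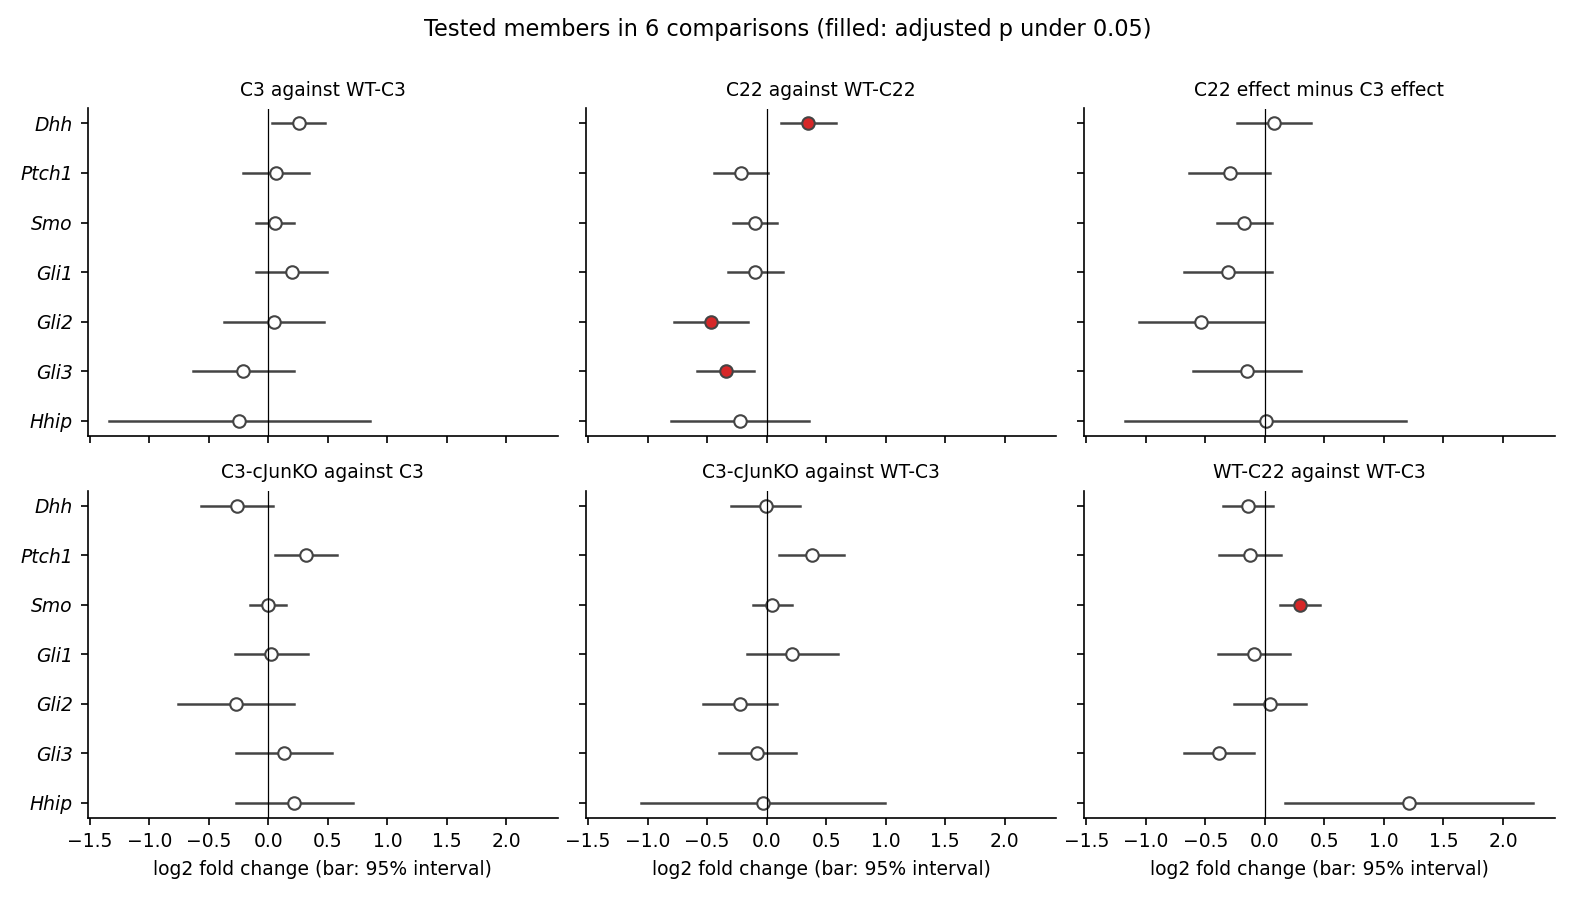
Log2 fold change (horizontal axes) of the 7 tested members with its 95% interval in the 6 comparisons, filled where the adjusted p was under 0.05. Dhh, Gli2 and Gli3 are filled for C22 against WT-C22 and Smo for WT-C22 against WT-C3, and the intervals of Hhip are the widest.

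With a slope of age shared by the groups, Ptch1 and Gli1 moved up and Dhh down. In 1 fit of all 25 libraries with a slope of age shared by the 5 groups, Dhh fell by 0.035 ± 0.0093 on the log2 scale per week (adjusted p = 0.00619), Ptch1 rose by 0.0343 ± 0.00998 (adjusted p = 0.0117) and Gli1 rose by 0.0341 ± 0.0128 (adjusted p = 0.0483), 3 of 7 members beside 28.5% of 15298 genes. Gli2 had 0.0422 ± 0.0162 (adjusted p = 0.0532) and Smo -0.0103 ± 0.00695 (adjusted p = 0.293). No member was called without the libraries of 3 weeks or without those of 12 weeks, and the call of Gli1 was also lost without those of 5 or of 7 weeks (adjusted p = 0.148 and 0.0846), with median-ratio size factors (0.0545) and with the log2 CPM filter (0.0552). In the controls alone only Ptch1 was called (0.0467 ± 0.0134 per week, adjusted p = 0.0442), beside 10.6% of genes. With a separate linear slope for each group, Gli1 had 0.0779 in WT-C3, 0.0811 in C3-cJunKO and 0.0182 in C22. It had 0.00236 in C3 and -0.00455 in WT-C22. Ptch1 had 0.00172 in C3 and from 0.0395 to 0.0534 in the other groups. Dhh was below 0 in every group, from -0.069 to -0.0174. None of these group slopes passed the test. A spline of age within each group called no member by edgeR, beside 0.752% of genes in C22, 2.27% in C3, 3.38% in C3-cJunKO, 2.86% in WT-C22 and 0.693% in WT-C3. At an unadjusted p under 0.05 it held 2 members in C3-cJunKO, Dhh and Gli1, and 2 in WT-C3, Gli1 and Hhip, and none in the other groups, and DESeq2 was not run on age.

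Of 55 other genes of the pathway, 52 were tested. In C3 7 rose and 6 fell, beside 12.5% and 11.4% of all genes, with a median log2 change of -0.03 against 0.00 over all genes. In C22 5 rose and 18 fell, beside 21.9% and 20.5%, with a median of -0.17 against 0.00. The list was chosen with results of these data known, and no test of the list was made. With library size only, 75.8% of all called genes in C22 were higher, beside 51.7% with TMM, and 71.4% beside 52.1% in C3. Under that scaling 10 of the 52 were higher and 11 lower in C22, where 7 of the 18 that fell lost their call, and 11 were higher and 3 lower in C3.

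Genes for ligand release and reception held 7 that fell in C22 and none that rose, of 12 tested, beside 20.5% of all genes that fell. Lrp2, of the same list, was not tested because the filter left it out. Every C22 library of Lrp2 lay above every WT-C22 library, with 96 to 234 counts per library and a mean of 5.5 CPM in C22. Scube1 and Scube2, secreted proteins that help release lipid-modified ligand, fell by 1.91 ± 0.12 and 1.31 ± 0.24 (adjusted p = 3.56e-07 and 0.00112). The coreceptors Boc and Cdon fell by 0.59 ± 0.17 and 0.31 ± 0.11 (adjusted p = 0.0132 and 0.0467), and the glypicans Gpc3, Gpc4 and Gpc6 by 0.43, 0.42 and 0.82. The calls of Boc and Cdon were lost with library size only (adjusted p = 0.0691 and 0.374), and that of Cdon also with no filter (0.0912), with filterByExpr (0.0514) and without the C22 library of 3, 5 or 7 weeks or the WT-C22 library of 7, 9 or 12 weeks (up to 0.109). In C3 the only call of this group was the coreceptor Gas1, which fell by 1.01 ± 0.18 (adjusted p = 0.00239). The test of the difference between the models was passed by Scube1 (-2.15), Gas1 (1.12), Gpc4 (-0.50) and Disp1 (-0.35), which encodes the transporter that exports the ligands. Between the controls, WT-C22 against WT-C3, Scube1 (0.59), Gas1 (-1.13) and Gpc4 (0.46) were called as well, and Disp1 (-0.01) was not. Disp1 lost this call with library size only (adjusted p = 0.109), no filter (0.17), filterByExpr (0.0582) and in 7 of 20 fits without 1 library.

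Among 29 genes of the cytoplasm and the cilium, 4 rose and 3 fell in C3, beside 12.5% and 11.4% of all genes. In C22, 3 rose and 7 fell, beside 21.9% and 20.5%. Sufu, the inhibitor that binds Gli proteins, rose in both (0.42 ± 0.09 in C3, adjusted p = 0.00646, and 0.26 ± 0.09 in C22, adjusted p = 0.0387). So did Tulp3, a ciliary trafficking protein (0.33 ± 0.08 and 0.23 ± 0.08, adjusted p = 0.0112 and 0.0313), and Prkacb, a catalytic subunit of protein kinase A, fell in both (-0.27 ± 0.09 and -0.42 ± 0.07, adjusted p = 0.043 and 0.000699). In C22, Evc2, a ciliary partner of Smo, fell by 0.72 ± 0.09 (adjusted p = 0.0001), and Gpr161, a ciliary repressor of the pathway, by 0.46 ± 0.07 (adjusted p = 0.000249). In C22 the call of Sufu was lost with no filter (0.088) and without any 1 library other than C22 of 3 weeks or WT-C22 of 12 weeks (up to 0.0842), and that of Tulp3 with no filter (0.0543) and without C22 of 3 or 7 weeks or WT-C22 of 7, 9 or 12 weeks (up to 0.0812). In C3 the call of Prkacb was lost with library size only (0.156), no filter (0.132), filterByExpr (0.0538), age as a replicate block (0.0576) and without C3 of 3, 5, 7 or 9 weeks or WT-C3 of 7 or 9 weeks (up to 0.102).

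Of 11 genes described as hedgehog targets in other tissues, 3 rose and 2 fell in C3, beside 12.5% and 11.4% of all genes, and 2 rose and 4 fell in C22, beside 21.9% and 20.5%. The cell cycle genes Ccnd1 (1.03 ± 0.17 in C3 and 1.39 ± 0.17 in C22, adjusted p = 0.00162 and 6.2e-05) and Mycn (0.77 ± 0.15 and 1.87 ± 0.20, adjusted p = 0.0036 and 2.77e-05) rose in both models. Sfrp1, a secreted Wnt antagonist, fell in both (-0.76 ± 0.12 and -0.71 ± 0.13, adjusted p = 0.00115 and 0.00102), as did Sox9 (-0.36 ± 0.09 and -0.81 ± 0.12, adjusted p = 0.0172 and 0.000272), though in C3 not with library size only (0.0601) or without the C3 library of 5 weeks (0.052). Foxl1 fell in C22 by 1.49 ± 0.26 (adjusted p = 0.000918). These genes answer to many signals besides hedgehog, and the part of hedgehog in their changes was not tested.

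**Figure D5:**
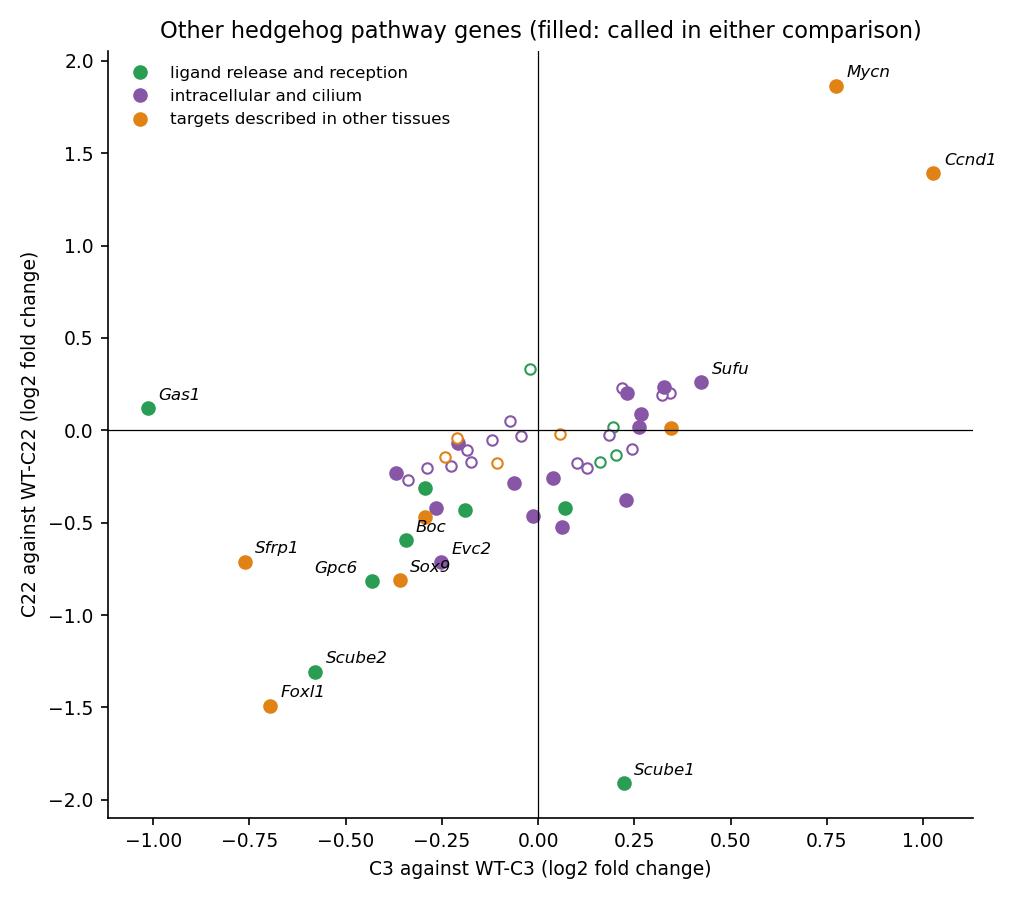
Log2 fold change of the 52 other pathway genes tested in C3 against WT-C3 (horizontal axis) and C22 against WT-C22 (vertical axis), coloured by role and filled where called in either comparison. Scube1 lies at -1.91 in C22 and 0.22 in C3, Gas1 at -1.01 in C3 and 0.12 in C22, and Ccnd1 and Mycn rose in both.

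For the difference between the models 2 of the 52 were called higher and 8 lower, beside 4.75% and 7.31% of all genes. With library size only, 62.8% of all called genes were higher in this difference, beside 39.4%. For C3-cJunKO against C3, 1 of the 52 was called, Efcab7, which fell by 1.57 ± 0.20 (adjusted p = 0.00378). Against WT-C3, C3-cJunKO had 7 higher and 6 lower, beside 10.3% and 11.3% (47.7% of all calls higher, and 66.7% with library size only), with Ccnd1 (0.82 ± 0.17, adjusted p = 0.006), Mycn (1.02 ± 0.15, adjusted p = 0.000538) and Sufu (0.35 ± 0.08, adjusted p = 0.0115) among those that rose. Between the strains 6 were higher and 3 lower in WT-C22, beside 9.99% and 11.7%, with Gas1 at -1.13 ± 0.20 (adjusted p = 0.00165) and Ccnd1 at -1.30 ± 0.13 (adjusted p = 2.26e-05).

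Markers of several other cell types were called lower. Of 8 perineurial markers, 6 were called lower in C22 and 5 in C3, none higher, and their sum ran from 996 to 1257 CPM in C22 and from 1440 to 2202 in WT-C22, without overlap, while C3 (1348 to 1897) and WT-C3 (1445 to 2281) overlapped. Of the perineurial markers, Itgb4 averaged 666 CPM in C22, against 163 for Slc2a1 and 140 for Cldn1, so the sum there rests mainly on 1 gene. Of 8 endothelial and pericyte markers, 5 were called lower in C22 and 2 in C3. The shares of all genes called lower were 20.5% in C22 and 11.4% in C3. The 8 nerve fibroblast markers tested held 1 lower call in C22 and none in C3. All 6 neuronal markers were called lower in C22, where they summed to between 15.8 and 23.6 CPM against 51.4 to 60.4 in WT-C22, and 3 of the 6 in C3. None of these markers was at 0 in any group. The part of these shifts in the values of Gli2, Gli3, Ptch1 and the reception genes was not tested.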

How the data were processed

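Sciatic nerve RNA was poly(A) selected and sequenced in 25 libraries. Per the study's methods the authors clipped adapters (cutadapt 2.10), aligned with STAR 2.7.5a to GRCm39 plus the human transgene locus, removed duplicates with UMI-tools 1.1.1 and counted fragments per gene with HTSeq 0.12.4. The deposited values are raw counts per gene. The 5 summary lines of the table were left out, and 8.12% to 12.1% of fragments lay on no gene.

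The analysis used edgeR 4.0.16 under R 4.3.3. Low genes were dropped by requiring, in 25% or more of the libraries, a log2 CPM over 1. Each comparison was fitted by edgeR's quasi-likelihood method with TMM factors and no term besides group, with Benjamini-Hochberg adjustment over all 13993 genes and a threshold of 0.05. Age was fitted with a natural spline of 3 degrees of freedom or a shared slope after filterByExpr. Intervals are 95% and counting limits cover counting error only. Coordinates and exon lengths are from GENCODE on GRCm39. Since p-values rest on pools of different ages, they measure the spread between these libraries.

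The genes named are the members, genes of the pathway and marker lists where counted, the 5 genes most like a member, and genes near Shh. The members and lists were chosen with earlier results of these data known. Steps were tested on simulated data. The scaling was replaced by median-ratio size factors or by library size only, the filter by none or by filterByExpr, and the test by DESeq2 1.42.0. Further alternatives were a single fit of all libraries, a replicate block of age, and leaving out each library in turn. Genes around Shh and the slope in the controls alone were added after seeing the data. Same-age libraries were not taken as pairs except with the replicate block of age. Their deviations from the group means correlated positively at every age for C3-cJunKO against C3 (0.438, 0.123, 0.347, 0.264 and 0.615). The same held for C3-cJunKO against WT-C3 (0.019 to 0.351) and WT-C22 against WT-C3 (0.046 to 0.653). For C3 against WT-C3 the lowest value was -0.224, and for C22 against WT-C22 it was -0.15.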

Additional observations from a re-analysis of the deposited data

Results flagged for a closer look

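Shh was higher than in the control at each of 5 ages in C3 and lower at each of 5 ages in C22, opposite directions that were not tested because Shh was selected on these values. The test of the difference between the 2 models was passed by 10 other genes of the pathway: Scube1 (-2.15), Kif7 (-0.63), Arrb1 (-0.60), Gpc4 (-0.50), Gpr161 (-0.47), Ift172 (-0.36), Disp1 (-0.35) and Evc (-0.32) were lower and Gas1 (1.12) and Mycn (1.08) higher in the C22 change than in the C3 change, on the log2 scale. Scube1, Gas1, Gpc4 and Mycn passed under all 7 other settings and in all 20 fits without 1 library. Some of these genes also differed between the controls. WT-C22 against WT-C3 gave Scube1 0.59, Gas1 -1.13, Gpc4 0.46 and Kif7 0.90, all called, and Mycn 0.11, not called. Gas1 averaged 43.4 CPM in C3 and 43.7 in C22, and Gpc4 39.5 and 38.9. The other 6 did not pass with library size only or with no filter on low counts. Without 1 library Disp1, Kif7, Gpr161 and Arrb1 each lost the call in 7 of the 20 fits, Ift172 in 17 and Evc in 0, and Ift172 also with median-ratio size factors, filterByExpr and all libraries in 1 fit, and Disp1 also with filterByExpr. Among 45 groups of 5 libraries examined over the members, 1 held a library far from the others. It was Smo in WT-C22, at 183 CPM at 3 weeks against 152 to 160 in the other 4 libraries. Chance sets apart a library in about 1 in 20 such groups.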

How the results depend on the processing

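Per group and age there was 1 pool, so no value could be repeated, and the changes of the tested members between transgenic mice and their controls were at most 0.47 on the log2 scale in size. Counts were low for Hhip, Gli3 and Ihh.

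Counts of members called moved as follows. With library size only, 1 was called in C3 (Dhh), 1 in C22 (Dhh) and 1 in C3-cJunKO against WT-C3 (Ptch1). In the last comparison DESeq2, no filter on low counts, filterByExpr and all libraries in 1 fit also called 1, Ptch1. For WT-C22 against WT-C3, DESeq2 called 3 and all libraries in 1 fit 2. A linear slope of age in each group called 1 (Hhip in WT-C3), and the shared slope in the 2 control groups alone 1. Leaving out libraries gave 0 to 1 in C3 (Dhh without the C3 library and Gli1 without the WT-C3 library of 12 weeks), 1 to 3 in C22 (Dhh alone without the WT-C22 library of 7 or of 9 weeks), 0 to 1 for the difference (Gli1), 0 to 1 in C3-cJunKO against WT-C3 (Ptch1, or Gli2 without the C3-cJunKO library of 12 weeks), 1 to 3 between the controls and 0 to 3 for the shared slope. Among the other pathway genes, the difference between the models had 4 calls with library size only and 5 with no filter (the same 4, Scube1, Gas1, Gpc4 and Mycn, and Lrp2, which the filter had left out), DESeq2 gave 15 between the controls, and leaving out libraries gave 8 to 14 in C3 (8 without the C3 library of 5 weeks), 6 to 11 for the difference (6 without the C22 library of 3 weeks or the WT-C22 library of 9 weeks) and 8 to 16 in C3-cJunKO against WT-C3 (8 without the C3-cJunKO library of 9 weeks). The cause was not tested.

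With age as a replicate block, 1 member was called in C3-cJunKO against WT-C3 (Ptch1) and 2 between the controls (Smo and Gli3), and no other count of members or pathway genes moved by over 1.5 times. In C3-cJunKO against C3 the block called no member either, while over all genes it called 273 in place of 77, with 60.1% higher in place of 40.3%.

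Changes of sign were looked for only in members whose own value is given for a comparison and in pathway genes called there. Among these, changes of sign were seen only for members far from the threshold. With library size only, Smo (0.0703) and Gli1 (0.0753) turned in C22. With the replicate block, Gli1 was at -0.0084 for C3-cJunKO against C3. Without 1 library, Gli2 in C3 ran from -0.11 to 0.14, Hhip in C3 from -0.53 to 0.25 and Gli1 in C3-cJunKO against C3 from -0.0509 to 0.15.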
